A study of Homo sapiens with 6 samples.

Results

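The 44 genes described here encode proteins of DNA replication and S phase: origin recognition and licensing, the MCM2-7 helicase and its activators, polymerases and primase, the sliding clamp and its loader, single-strand DNA binding, nucleotide supply and the control of S phase entry. They were taken by symbol, and all 44 were found among the 20036 genes of the deposited table. A mean level of at least 1 FPKM over the 6 libraries was needed for testing, and 37 of the 44 reached it, against 10547 of all genes. FPKM is the number of fragments scaled to the length of the transcript and to the depth of the library, so levels of different genes can be compared.

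The RNA came from KGN, an established human cell line of ovarian granulosa tumour origin, labelled as wild type. Cells had received siOGT1 or siOGT2, each a small interfering RNA (siRNA) against the mRNA of OGT, or the negative control siRNA siNC, all by lipid transfection and all collected 48 hours later. The OGT enzyme adds the sugar O-GlcNAc to many proteins of the nucleus and the cytosol. Each of the 3 groups had 2 libraries, and the question of the series was how the transcriptome changes when OGT is reduced. Nothing in the labels says that the libraries of a group came from separate cultures, so the p-values measure the spread between these libraries, which may be technical.

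Replication is prepared in G1, when the origin recognition complex, CDC6 and CDT1 load the ring-shaped MCM2-7 complex onto DNA. In S phase, kinases and the factors CDC45 and GINS turn each loaded ring into an active helicase, and primase and the polymerases then copy both strands behind it. Many of the genes involved are transcribed under the control of E2F factors, and their mRNA is highest in proliferating cells around the start of S phase.

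OGT itself (ENSG00000147162, X chromosome of GRCh38, 71533083 to 71575897, plus strand) had 13.8 and 12.9 FPKM with siOGT1, 14.3 and 14.7 with siOGT2 and 22.4 and 23.4 with siNC. Both siRNAs lowered it, with siOGT1 to 58.3% and with siOGT2 to 63.2% of its level with siNC, so the labels hold for the targeted gene. The libraries held 18408360 and 21416489 reads with siOGT1, 18123136 and 16756649 with siOGT2, and 20152533 and 20113114 with siNC. Each tested replication gene rested on 42 to 2273 reads per library, and the untested ones on 2 to 239. Of 12 granulosa cell markers, 6 averaged at least 1 FPKM over the libraries, among them FOXL2 at 5.92, 5.83 and 5.34 FPKM with siOGT1, siOGT2 and siNC. FSHR, the follicle-stimulating hormone receptor gene, was listed at 0 in all libraries, and CYP19A1, the aromatase gene, did not exceed 0.0111 FPKM. Of 3 theca cell markers, STAR, which carries cholesterol into mitochondria for steroid synthesis, averaged 2.04 FPKM with siOGT1, 1.90 with siOGT2 and 1.31 with siNC. CYP17A1 and LHCGR, the other theca markers, did not exceed 0.0815 FPKM. The summed theca markers were 2.04 to 2.11 FPKM with siOGT1, 1.72 to 2.18 with siOGT2 and 1.26 to 1.43 with siNC, and their part in the results was not tested. None of 5 leukocyte, 4 endothelial and 3 epithelial markers averaged 1 FPKM.

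Sequence around the RefSeq transcription start is shown for 5 of the genes whose levels are described in detail. The E2F and CCAAT motifs long known from S phase promoters can be seen in it. Each stretch runs from 200 bases before to 30 bases after the RefSeq start in GRCh38.p14, on the strand of the gene, and capitals mark the E2F words TTTGGCGC, TTTCCCGC, TTTGCCGC and TTTCGCGC and the box CCAAT, searched on both strands. GENCODE 29 gene models begin upstream of the RefSeq start for MCM3, RFC3 and MCM10. The E2F word of RFC3 and the later one of MCM3 lie downstream of those GENCODE starts. MCM6 (chr2:135876414-135876643, minus strand), MCM3 (chr6:52284713-52284942, minus), RFC3 (chr13:33817949-33818178, plus) and CLSPN (chr1:35769949-35770178, minus) each held an E2F word, and MCM10 (chr10:13161358-13161587, plus) held CCAAT boxes alone.
MCM6: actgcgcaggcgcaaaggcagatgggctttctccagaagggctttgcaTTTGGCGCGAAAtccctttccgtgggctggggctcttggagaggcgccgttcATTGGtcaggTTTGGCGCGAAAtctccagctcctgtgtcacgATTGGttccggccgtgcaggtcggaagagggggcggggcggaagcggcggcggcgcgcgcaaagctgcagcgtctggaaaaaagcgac
MCM3: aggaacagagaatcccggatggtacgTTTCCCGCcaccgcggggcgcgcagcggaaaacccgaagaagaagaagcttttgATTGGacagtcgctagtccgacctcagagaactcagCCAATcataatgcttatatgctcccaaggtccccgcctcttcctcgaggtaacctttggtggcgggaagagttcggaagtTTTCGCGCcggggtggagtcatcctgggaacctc
RFC3: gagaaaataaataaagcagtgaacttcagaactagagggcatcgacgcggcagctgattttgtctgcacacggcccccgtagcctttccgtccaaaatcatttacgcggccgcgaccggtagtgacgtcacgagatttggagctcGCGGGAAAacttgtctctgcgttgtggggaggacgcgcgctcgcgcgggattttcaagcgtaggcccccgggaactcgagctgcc
CLSPN: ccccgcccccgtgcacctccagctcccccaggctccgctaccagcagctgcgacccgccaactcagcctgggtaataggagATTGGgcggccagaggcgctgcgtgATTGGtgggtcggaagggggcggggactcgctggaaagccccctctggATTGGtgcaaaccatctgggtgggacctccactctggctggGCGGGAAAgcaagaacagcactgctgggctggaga
MCM10: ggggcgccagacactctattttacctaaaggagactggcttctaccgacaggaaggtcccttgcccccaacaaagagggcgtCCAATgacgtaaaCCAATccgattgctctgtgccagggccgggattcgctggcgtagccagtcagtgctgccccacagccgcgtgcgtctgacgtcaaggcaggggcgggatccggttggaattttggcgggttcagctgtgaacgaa
In MCM6, TTTGGCGC on the gene strand overlaps TTTCGCGC on the other strand at both places, which gives 4 words counted, and of its 2 CCAAT boxes, both on the other strand, 1 lies between these places and 1 after them. A match describes the letters only and shows no binding.

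With siOGT1, 10 of the 37 tested replication genes were lower than with siNC and 1 was higher. The 10 were ORC1, CDC6, MCM3, MCM4, MCM10, PRIM2, RFC3, RFC5, FEN1 and TK1, and the 1 was RPA1. They are 27% of the genes tested here, whereas 8.1% of all tested genes were lower and 9.51% higher in that comparison. With siOGT2, 3 were lower (MCM10, FEN1 and CDC25A) and 3 higher (MCM6, RFC2 and RPA1), against 13.4% of all tested genes lower and 22.1% higher. The 8.11% lower with siOGT2 therefore lies below the share over all genes. The changes were small: the fitted log2 fold changes of log2(FPKM + 1) ran between -0.356 and 0.203 with siOGT1 and between -0.238 and 0.314 with siOGT2. Fewer of the 37 were lower with siOGT1 when any single siNC or siOGT1 library was left out. With siOGT2, fewer were lower when any single siNC or siOGT2 library was left out. Counts of lower genes over all tested genes fell less steeply in the same fits, each of which leaves 1 library in a group. Since 1 was added to each FPKM, these values understate the change of genes of low level.

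**Figure D1:**
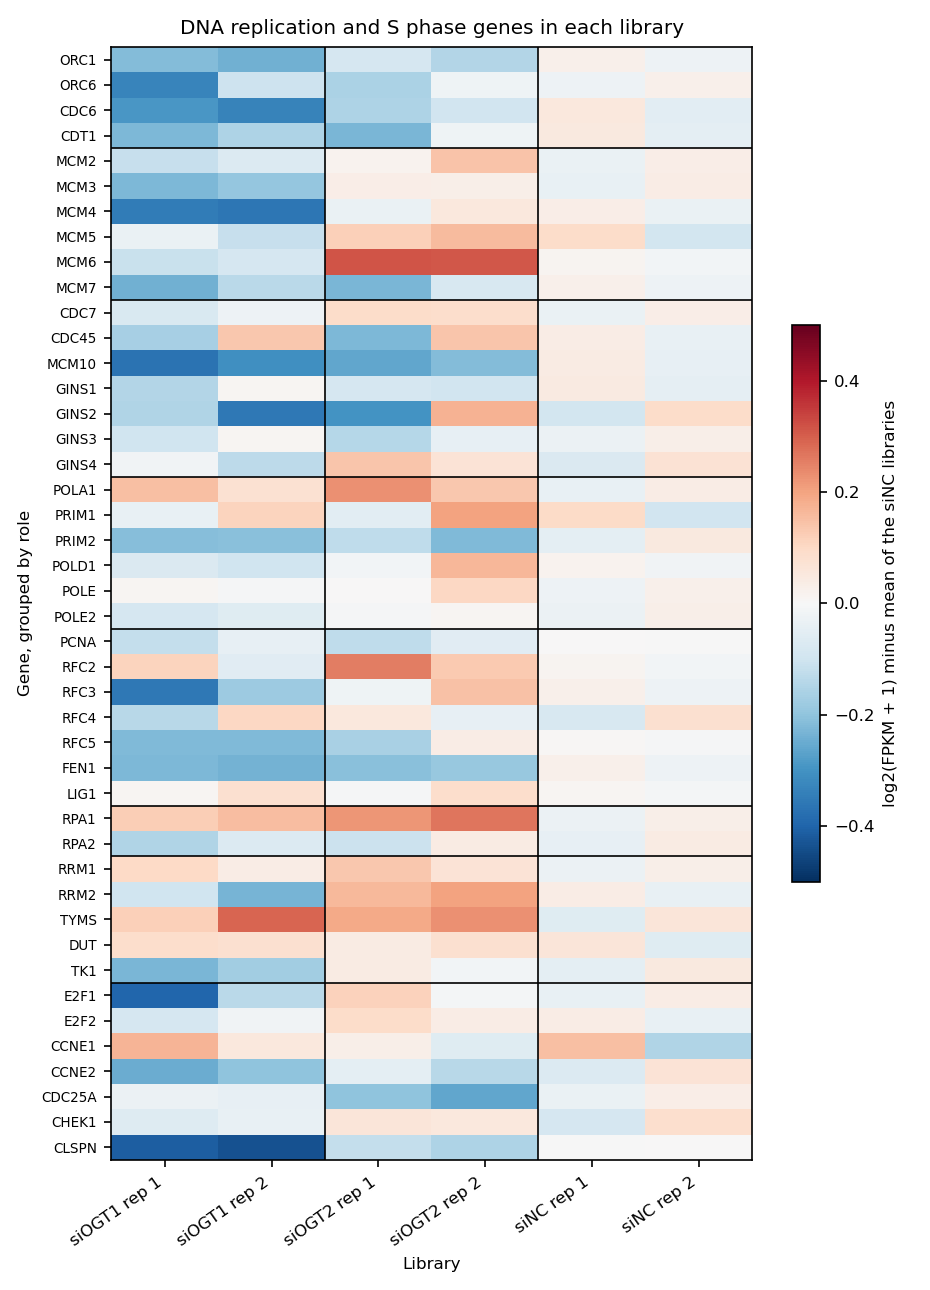
The 44 genes (rows, grouped by role) in each of the 6 libraries (columns); colour gives log2(FPKM + 1) minus the mean of the siNC libraries, blue for lower and red for higher. MCM4 and CDC6 are blue in both siOGT1 libraries, FEN1 and MCM10 are blue in all 4 siOGT libraries, and MCM6 is red in both siOGT2 libraries.

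The comparisons with siOGT1 and siOGT2 share their siNC libraries, so they are given side by side. FEN1 and MCM10 were lower with both, 5.41% of the 37, near the 5.11% of all tested genes. RPA1 was higher with both, 2.7% of the 37, below the 7.25% of all tested genes. The median log2 fold change of the 37 genes was -0.087 with siOGT1, beside 0.032 over all tested genes, and 0.012 with siOGT2, beside 0.045. In the mean of both siRNAs against siNC, 7 were lower (ORC1, CDC6, MCM4, MCM7, MCM10, PRIM2 and FEN1) and 2 higher (RPA1 and TYMS), against 11.8% and 19.4% of all tested genes. Fewer were lower in the mean when any single library but siOGT1 replicate 2 was left out. Without either siNC library or siOGT2 replicate 1, the count of lower genes over all tested genes fell less steeply. Calls here are limma tests across all genes at a Benjamini-Hochberg adjusted p under 0.05. In whole-culture RNA, fewer cells in S phase and less of an mRNA per cell cannot be told apart.

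Scaling the libraries by a trimmed mean of log ratios in place of the deposited FPKM moved the split. It gave 11 lower and 0 higher with siOGT1, 6 lower and 2 higher with siOGT2, and 10 lower and 1 higher in the mean of both siRNAs. Over all genes that scaling gave 1008 lower and 548 higher with siOGT1, beside 854 and 1003 as deposited, and 1865 and 1374 with siOGT2, beside 1411 and 2329. In the mean it gave 1651 lower and 1121 higher, beside 1243 and 2041.

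**Figure D2:**
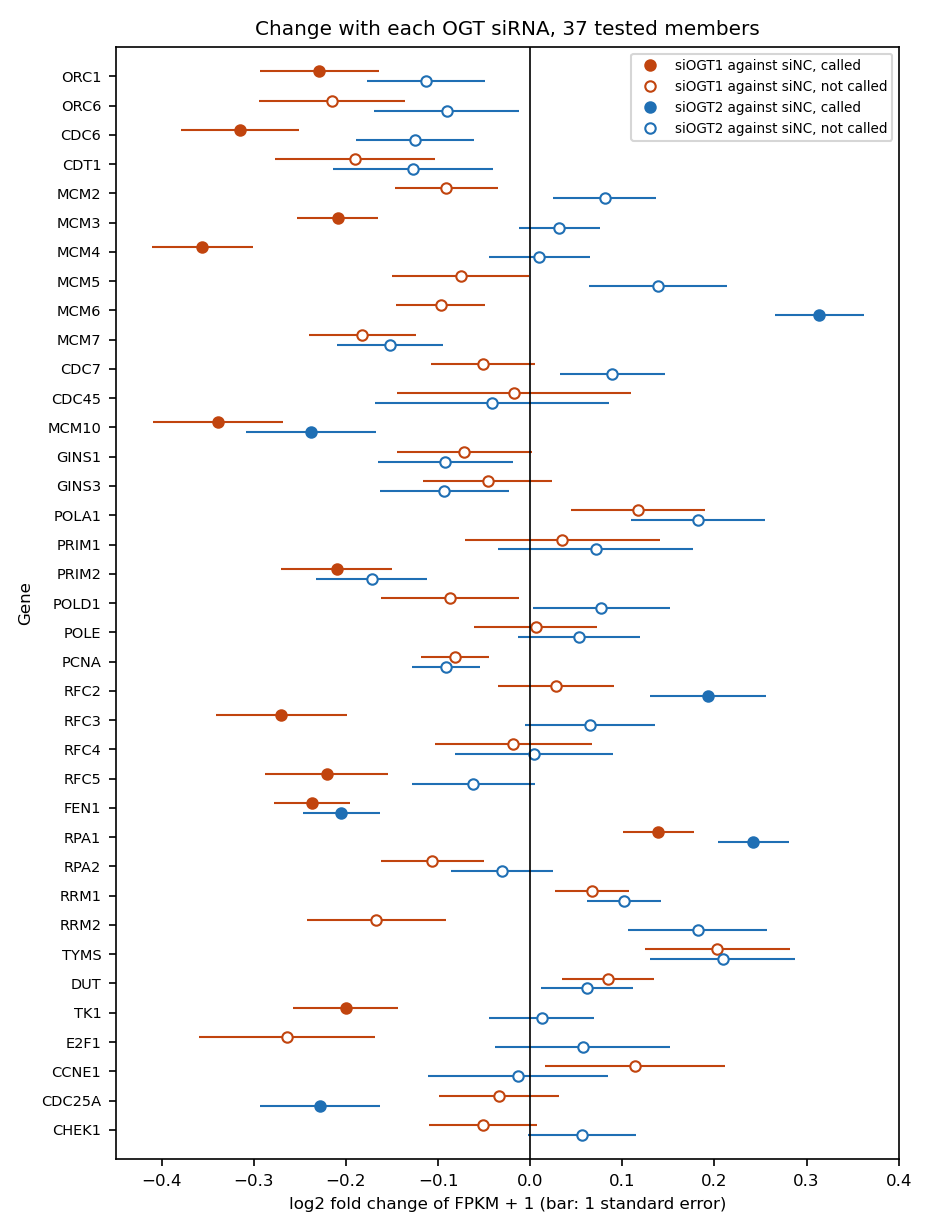
Log2 fold change of FPKM + 1 (horizontal axis) of the 37 tested genes with siOGT1 and with siOGT2, each against siNC; bars are 1 standard error and filled points passed an adjusted p under 0.05. Most siOGT1 points lie left of 0, 28 of 37, while 16 of the siOGT2 points do. Of all 10547 tested genes, 3947 lie below 0 with siOGT1 and 3972 with siOGT2.

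Genes of origin recognition and licensing stood lower with siOGT1 in all 4 cases, beside 3947 of all 10547 tested genes. Of the 4, 2 passed, beside 8.1% of all tested genes. Among 10 further tested licensing genes, given below, 6 lay below 0 and 4 above with siOGT1, and 0 passed. CDC6 (ENSG00000094804, chromosome 17, 40287633 to 40304657, plus strand), the ATPase that helps to load the helicase at origins, had 2.06 and 1.97 FPKM with siOGT1, 2.37 and 2.51 with siOGT2, and 2.89 and 2.61 with siNC. The 3 groups did not overlap, with siOGT1 at the bottom and siNC at the top. CDC6 fell by 0.31 with siOGT1 on the log2 scale (SE 0.0642, adjusted p = 0.0096), and its value with siOGT2 was -0.12 (adjusted p = 0.159). ORC1 (ENSG00000085840, chromosome 1, 52372829 to 52404459, minus strand), the largest subunit of the origin recognition complex, had 1.55 and 1.51 FPKM with siOGT1, 1.80 and 1.68 with siOGT2, and 2.02 and 1.91 with siNC. The order of the groups was the same as for CDC6, again without overlap. The log2 fold change of ORC1 was -0.23 with siOGT1 (SE 0.0644, adjusted p = 0.0375) and -0.11 with siOGT2 (adjusted p = 0.202). Averaged over both siRNAs, the values were -0.22 for CDC6 (adjusted p = 0.0161) and -0.17 for ORC1 (adjusted p = 0.0441). ORC6, the smallest origin recognition subunit, averaged 4.04, 4.48 and 4.83 FPKM with siOGT1, siOGT2 and siNC, and CDT1, the partner of CDC6 in loading, averaged 0.933, 1.02 and 1.21. Neither passed in any comparison. The ORC1 call with siOGT1 ended in 6 of 16 other settings, among them the omission of any siNC or siOGT1 library (adjusted p up to 0.178), and the CDC6 call in 2, without siNC replicate 1 or siOGT1 replicate 2 (up to 0.0801). In the mean, the ORC1 call ended in 9 of 15 settings, among them the omission of any single library. The CDC6 call in the mean ended in 2, without the filter on low values or without siNC replicate 1.

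The MCM2-7 subunits form the 6-membered ring of the replicative helicase. Compared directly, 3 of the 6 were lower with siOGT1 than with siOGT2 and 0 higher, beside 8.24% and 8.35% of all tested genes. MCM4 (ENSG00000104738, chromosome 8, 47960185 to 47978160, plus strand) had 3.58 and 3.55 FPKM with siOGT1, 4.70 and 5.06 with siOGT2, and 4.98 and 4.70 with siNC. Both siOGT1 libraries lay well below the other 4, which overlapped. With siOGT1 the level was 73.6% of that with siNC (log2 fold change -0.36, SE 0.055, adjusted p = 0.00218). The value with siOGT2 was 0.01 (95% interval -0.114 to 0.134, adjusted p = 0.903). MCM3 (ENSG00000112118, chromosome 6, 52264009 to 52284881, minus strand) had 7.91 and 8.12 FPKM with siOGT1, 9.66 and 9.64 with siOGT2, and 9.16 and 9.68 with siNC. It was low in the siOGT1 libraries alone, and its siOGT2 libraries lay within the siNC range. MCM3 fell by 0.21 with siOGT1 (SE 0.044, adjusted p = 0.0113), while siOGT2 gave 0.03 (adjusted p = 0.61).

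MCM6 (ENSG00000076003, chromosome 2, 135839626 to 135876426, minus strand) passed with siOGT2 in place of siOGT1. It had 4.27 and 4.37 FPKM with siOGT1, 6.08 and 6.06 with siOGT2, and 4.75 and 4.63 with siNC. The siOGT2 libraries stood apart above all others, and the siOGT1 libraries lay just below siNC. MCM6 rose with siOGT2 to 129% of the siNC level (log2 fold change 0.31, SE 0.048, adjusted p = 0.00125), and with siOGT1 the value was -0.10 (adjusted p = 0.198). MCM7 (ENSG00000166508, chromosome 7, 100092728 to 100101940, minus strand) had 10.9 and 11.8 FPKM with siOGT1, 11 and 12.3 with siOGT2, and 13.3 and 12.8 with siNC. All 4 siOGT libraries were below siNC. MCM7 passed in the mean of both siRNAs alone (-0.17, SE 0.05, adjusted p = 0.0319). MCM2 averaged 5.80, 6.67 and 6.25 FPKM with siOGT1, siOGT2 and siNC, and MCM5 averaged 2.0, 2.48 and 2.17, and neither passed. Summed over the 6 subunits, the level was 34.5 and 35.7 FPKM with siOGT1, 40.2 and 42.6 with siOGT2, and 40.6 and 40.2 with siNC. Omitting siNC replicate 2 or siOGT1 replicate 1 ended the MCM3 call with siOGT1 (adjusted p up to 0.0882), whereas the MCM4 call with siOGT1 and the MCM6 call with siOGT2 held in all other settings. The MCM4 call in the mean of both siRNAs (-0.17, adjusted p = 0.0229) ended without the filter, without either siNC library or without siOGT2 replicate 1 (adjusted p up to 0.167). That of MCM7 ended without the same 3 libraries, without siOGT1 replicate 1 and in 2 more settings (up to 0.184).

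**Figure D3:**
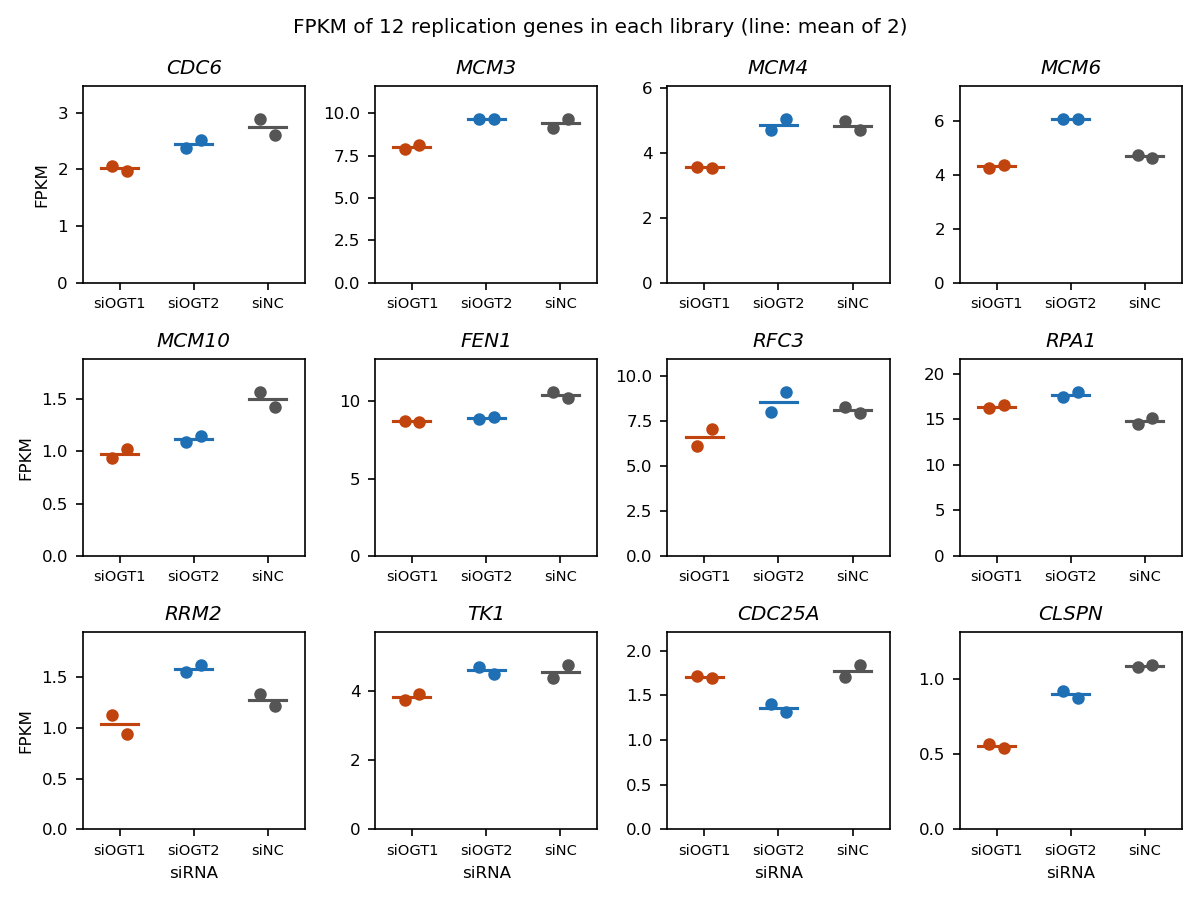
FPKM of 12 replication genes in each library, by siRNA; points are libraries and lines are means of 2. MCM3, MCM4, TK1 and CLSPN are low in both siOGT1 libraries, MCM6 is high in both siOGT2 libraries, FEN1 and MCM10 are low with both siRNAs and RPA1 is high with both.

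Among the factors that turn the loaded ring into a working helicase, MCM10 was lower with both siRNAs. MCM10 (ENSG00000065328, chromosome 10, 13161554 to 13211104, plus strand), a factor needed for origin firing that is not part of the ring, had 0.936 and 1.02 FPKM with siOGT1, 1.09 and 1.15 with siOGT2, and 1.57 and 1.43 with siNC. The siNC libraries stood clear above the other 4. Levels were 65.1% of siNC with siOGT1 (log2 fold change -0.34, SE 0.0709, adjusted p = 0.0108) and 74.6% with siOGT2 (-0.24, SE 0.0709, adjusted p = 0.0279). Averaged over both, MCM10 fell by 0.29 (SE 0.0614, adjusted p = 0.00751). CDC7, the kinase that phosphorylates the ring, averaged 3.02, 3.43 and 3.16 FPKM with siOGT1, siOGT2 and siNC and did not pass. CDC45, a helicase subunit, spread from 1.33 to 1.87 FPKM within siOGT1 alone, and the 95% interval of its log2 fold change with siOGT1 ran from -0.303 to 0.267. GINS1 and GINS3, members of the 4-subunit GINS complex, averaged 1.86, 1.82 and 2.01 FPKM and 2.06, 1.96 and 2.16 FPKM with siOGT1, siOGT2 and siNC, and did not pass. GINS2 and GINS4 were below the level for testing, at 0.847 and 0.835 FPKM over all libraries. The MCM10 call with siOGT1 ended without siNC replicate 1 or siOGT1 replicate 1 (adjusted p up to 0.0857), and that with siOGT2 ended without any siNC or siOGT2 library (up to 0.152). In the mean it ended without siNC replicate 1 (0.0792).

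Of the polymerase and primase genes, 1 of 5 tested was lower with siOGT1, beside 8.1% of all tested genes. None of the others passed in any comparison. PRIM2 (ENSG00000146143, chromosome 6, 57314805 to 57646849, plus strand), the large primase subunit, had 3.33 and 3.34 FPKM with siOGT1, 3.59 and 3.30 with siOGT2, and 3.85 and 4.18 with siNC. All 4 siOGT libraries lay below siNC, and those of the siRNAs overlapped each other. The log2 fold change was -0.21 with siOGT1 (SE 0.06, adjusted p = 0.0402), -0.17 with siOGT2 (SE 0.06, adjusted p = 0.0508) and -0.19 in the mean (SE 0.052, adjusted p = 0.0219). The siOGT1 call of PRIM2 ended in 6 of 16 settings, including without any siNC or siOGT1 library and with the replicate number as a block (adjusted p up to 0.215), and its mean call ended in 3, among them without siNC replicate 2 or siOGT2 replicate 2 (up to 0.181). Its partner PRIM1, the catalytic subunit, averaged 1.07, 1.13 and 1.03 FPKM with siOGT1, siOGT2 and siNC. POLA1, the catalytic subunit of the priming polymerase alpha, averaged 1.30, 1.41 and 1.12 FPKM in the same order. Both siRNAs gave POLA1 values above 0, at 0.12 (adjusted p = 0.304) and 0.18 (adjusted p = 0.0793). The leading- and lagging-strand polymerase genes POLE (1.83, 1.92 and 1.82 FPKM) and POLD1 (1.60, 1.92 and 1.77 FPKM) did not pass either. POLE2, an accessory subunit of polymerase epsilon, was just below the level for testing at 0.989 FPKM, while CDT1, at 1.05, was the lowest gene just above it.

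FEN1 (ENSG00000168496, chromosome 11, 61792637 to 61797244, plus strand), the nuclease that trims the flaps of Okazaki fragments, was lower with both siRNAs. It had 8.75 and 8.67 FPKM with siOGT1, 8.86 and 8.99 with siOGT2, and 10.6 and 10.2 with siNC. The 4 siOGT libraries lay close together, all below siNC. Levels were 83.4% of siNC with siOGT1 (log2 fold change -0.24, SE 0.0415, adjusted p = 0.00437) and 85.5% with siOGT2 (-0.20, SE 0.0415, adjusted p = 0.00524). Both calls held in each of 17 other settings. LIG1, the ligase that seals the trimmed fragments, was below the level for testing at 0.915 FPKM.

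The clamp PCNA was by far the most abundant of the 44, at 71.6 and 75.6 FPKM with siOGT1, 71.3 and 74.9 with siOGT2, and 78.0 and 77.8 with siNC. All 4 siOGT libraries lay below siNC, yet PCNA did not pass in the mean of both siRNAs (log2 fold change -0.09, SE 0.0318, adjusted p = 0.0659). The clamp is opened and loaded by replication factor C, and its tested subunits differed from each other. RFC3 (ENSG00000133119, chromosome 13, 33818049 to 33966558, plus strand) had 6.12 and 7.03 FPKM with siOGT1, 7.99 and 9.10 with siOGT2, and 8.28 and 7.95 with siNC. It was low in the siOGT1 libraries alone. RFC3 fell by 0.27 with siOGT1 (SE 0.0708, adjusted p = 0.0286), and siOGT2 gave 0.06 (adjusted p = 0.507). RFC5 (ENSG00000111445, chromosome 12, 118013588 to 118033130, plus strand) had 3.95 FPKM in both siOGT1 libraries, 4.16 and 4.92 with siOGT2, and 4.80 and 4.74 with siNC. Its siOGT1 call was at the edge of the threshold (-0.22, SE 0.067, adjusted p = 0.04998).

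RFC2 (ENSG00000049541, chromosome 7, 74231499 to 74254458, minus strand) went the other way with siOGT2. It had 14.4 and 12.7 FPKM with siOGT1, 16.0 and 14.6 with siOGT2, and 13.4 and 13.1 with siNC. The siOGT2 libraries were the highest and the siOGT1 libraries straddled siNC. RFC2 rose by 0.19 with siOGT2 (SE 0.0627, adjusted p = 0.0389), and siOGT1 gave 0.03 (adjusted p = 0.804). RFC4 averaged 5.20, 5.28 and 5.27 FPKM with siOGT1, siOGT2 and siNC. The RFC2 call ended under each of the 3 other scalings and in 5 more settings (adjusted p up to 0.222), among them without either siNC library or siOGT2 replicate 1. The RFC3 and RFC5 calls with siOGT1 ended in 5 and 8 settings (up to 0.149 and 0.177), in both cases among them without either siNC library or siOGT1 replicate 1, and for RFC5 also without siOGT1 replicate 2.

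Of the single-strand DNA binding subunits, RPA1 was higher and RPA2 did not pass. RPA1 (ENSG00000132383, chromosome 17, 1829702 to 1900082, plus strand), the largest subunit of replication protein A, had 16.2 and 16.6 FPKM with siOGT1, 17.4 and 18 with siOGT2, and 14.5 and 15.1 with siNC. The groups did not overlap, and siOGT2 was the highest. RPA1 rose by 0.14 with siOGT1 (SE 0.0386, adjusted p = 0.0355), by 0.24 with siOGT2 (SE 0.0386, adjusted p = 0.00153) and by 0.19 in the mean (SE 0.0334, adjusted p = 0.00289). Its partner RPA2 averaged 18.6, 19.6 and 20.1 FPKM with siOGT1, siOGT2 and siNC. The siOGT2 and mean calls of RPA1 held in all other settings. The siOGT1 call ended in 9 of 17, under the trimmed mean of log ratios and quantile scaling among them and without any siNC or siOGT1 library (adjusted p up to 0.189).

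Enzymes of nucleotide supply also moved in different directions. TK1 (ENSG00000167900, chromosome 17, 78174075 to 78187233, minus strand), the thymidine kinase of the salvage pathway, had 3.74 and 3.92 FPKM with siOGT1, 4.70 and 4.50 with siOGT2, and 4.36 and 4.74 with siNC. Its siOGT1 libraries were the lowest and the others overlapped. TK1 fell by 0.20 with siOGT1 (SE 0.0569, adjusted p = 0.0395), a call that ended in 9 of 16 settings, among them the omission of any of the 6 libraries (adjusted p up to 0.217). TYMS (ENSG00000176890, chromosome 18, 657604 to 673578, plus strand), thymidylate synthase, had 1.75 and 2.10 FPKM with siOGT1, 1.89 and 1.97 with siOGT2, and 1.43 and 1.64 with siNC. All 4 siOGT libraries were above siNC. TYMS rose in the mean of both siRNAs (0.21, SE 0.068, adjusted p = 0.0458) and passed with neither alone, and that call ended in 10 of 15 settings (adjusted p up to 0.283), the 3 other scalings and the omission of any library but siOGT1 replicate 1 among them.

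RRM2 (ENSG00000171848, chromosome 2, 10120698 to 10131419, plus strand), the small subunit of ribonucleotide reductase, had 1.13 and 0.939 FPKM with siOGT1, 1.55 and 1.62 with siOGT2, and 1.34 and 1.22 with siNC. The siNC libraries lay between the siRNA groups. Neither siRNA passed against siNC for RRM2 (-0.17, adjusted p = 0.163, with siOGT1, and 0.18, adjusted p = 0.088, with siOGT2). The large subunit RRM1 was much more abundant, at 22, 22.6 and 20.9 FPKM on average with siOGT1, siOGT2 and siNC. DUT, which removes dUTP from the nucleotide pool, averaged 8.56, 8.42 and 8.03 FPKM, and neither RRM1 nor DUT passed.

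In the control of S phase entry, CDC25A was lower with siOGT2 alone. CDC25A (ENSG00000164045, chromosome 3, 48157146 to 48188402, minus strand), the phosphatase that activates CDK2, had 1.72 and 1.70 FPKM with siOGT1, 1.41 and 1.32 with siOGT2, and 1.71 and 1.84 with siNC. Its siOGT2 libraries lay below the other 4. CDC25A fell by 0.23 with siOGT2 (SE 0.0653, adjusted p = 0.0239), a call that ended without any siNC or siOGT2 library (adjusted p up to 0.128). With siOGT1 the value was -0.03, and the difference between the siRNAs was 0.19 (adjusted p = 0.0745). E2F1 (ENSG00000101412, chromosome 20, 33675683 to 33686404, minus strand), a transcription factor that drives S phase genes, had 0.848 and 1.22 FPKM with siOGT1, 1.64 and 1.42 with siOGT2, and 1.37 and 1.5 with siNC. Its siOGT1 libraries were the lowest but far apart from each other. E2F1 did not pass against siNC with siOGT1 (-0.26, SE 0.0953, adjusted p = 0.0884). CCNE1, the cyclin E1 gene, averaged 2.32, 2.03 and 2.08 FPKM with siOGT1, siOGT2 and siNC, and the checkpoint kinase gene CHEK1 averaged 5.86, 6.40 and 6.12, and neither passed.

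CLSPN (ENSG00000092853, chromosome 1, 35720218 to 35769967, minus strand), the adaptor through which CHEK1 is activated at stalled forks, averaged 0.845 FPKM and so was not tested with the others. It had 0.566 and 0.540 FPKM with siOGT1, 0.920 and 0.871 with siOGT2, and 1.08 and 1.09 with siNC. The groups did not overlap, and the siOGT1 level was 51.0% of siNC, from 100 and 111 reads against 208 and 211. In the fit without the filter on low values, CLSPN fell by 0.42 with siOGT1 (SE 0.0446, adjusted p = 0.00748) and by 0.28 in the mean (adjusted p = 0.0105), and with siOGT2 it had -0.14 (adjusted p = 0.0956). CCNE2, the cyclin E2 gene, at 0.506, 0.650 and 0.763 FPKM with siOGT1, siOGT2 and siNC, and E2F2, at 0.0441, 0.130 and 0.0818, were also below the filter and did not pass without it.

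**Figure D4:**
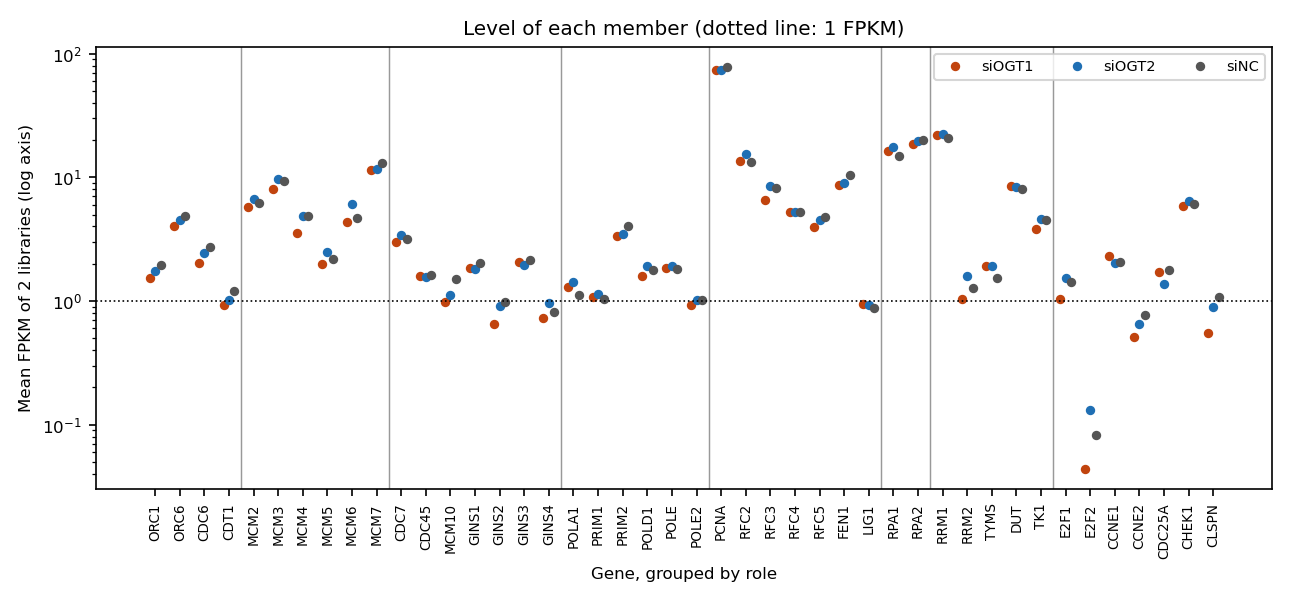
Mean FPKM of 2 libraries (log axis) of each of the 44 genes with siOGT1, siOGT2 and siNC, grouped by role; the dotted line marks 1 FPKM. PCNA is the highest at 74.9 FPKM over all libraries and E2F2 the lowest at 0.0855, and for most genes the 3 groups lie close together.

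The siRNAs were also compared directly, a contrast that uses the siNC libraries for the estimate of spread alone. Of the 37 genes, 7 were lower with siOGT1 than with siOGT2 and 0 were higher, against 8.24% and 8.35% of all tested genes. Of the 37 fitted differences, 30 were below 0, beside 5534 of the 10547 over all tested genes. At an unadjusted p under 0.05, limma gave 14 lower and 1 higher, beside 1691 and 1538 of all 10547 tested genes. With voom on the recovered reads, 7 were lower and 0 higher at an adjusted p under 0.05, beside 1145 and 1135 of all. The 7 called on log2(FPKM + 1) were MCM3, MCM4, MCM6, RFC3, RRM2, TK1 and E2F1. They act in different steps: the helicase ring, clamp loading, nucleotide supply and transcription. For MCM6 the difference was -0.41 (SE 0.048, adjusted p = 0.000485), for MCM4 -0.37 (SE 0.055, adjusted p = 0.00207) and for MCM3 -0.24 (SE 0.044, adjusted p = 0.00609). All 3 held in every other setting. The differences of RRM2 (-0.35, SE 0.0753, adjusted p = 0.013), RFC3 (-0.33, SE 0.0708, adjusted p = 0.012), TK1 (-0.21, SE 0.0569, adjusted p = 0.0326) and E2F1 (-0.32, SE 0.0953, adjusted p = 0.0479) were each lost in some settings. The highest adjusted p was 0.0812 for RRM2, without siOGT1 replicate 2 or siOGT2 replicate 2, and 0.0935 for RFC3, without siOGT1 replicate 1 or siOGT2 replicate 2 among others. It was 0.182 for TK1, which was lost without any siOGT library, and 0.246 for E2F1, which was lost without any library but siOGT1 replicate 2. Without siOGT2 replicate 2, 3 of the 7 were left. In the fit without the filter, CLSPN was lower too (-0.29, adjusted p = 0.0264). The median difference over the 37 was -0.101, beside -0.007 over all tested genes.

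A RefSeq start window from 250 bases before to 50 after was matched for 39 of the 44 genes. An E2F word, as spelled out above, was found in 22 of the 39 (56.4%), while 6.68% of 8693 tested genes and 3.99% of 27305 genes with a window held one. CCAAT was found in 23 of the 39 (59%), beside 44.1% of tested genes and 39.7% of all. An E2F word overlapped a CCAAT box 1 time among these windows. Among the genes lower with siOGT1, 3 of 9 with a window held an E2F word. Of those lower with siOGT1 than with siOGT2, 4 of 6 did, and of those called in no comparison 9 of 17 did. These small counts were not tested between called and uncalled genes.

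Other genes of the same steps gave a mixed picture. Among 10 further tested licensing genes, 0 passed limma's test with siOGT1, with 2 lower and 0 higher at an unadjusted p under 0.05. With siOGT2, 3 were lower and 1 higher. Over all 10547 tested genes, 8.1% were lower and 9.51% higher with siOGT1, and 13.4% and 22.1% with siOGT2. At an unadjusted p under 0.05, limma gave 1272 lower and 2088 higher of all with siOGT1. DBF4, the activating partner of CDC7, had 11.1 and 11.3 FPKM with siOGT1, 9.17 and 8.68 with siOGT2, and 12 and 12.5 with siNC, and it fell with siOGT2 (-0.42, SE 0.0438, adjusted p = 0.00014). Of 11 further helicase activation and fork genes, 1 was lower with siOGT1, TIPIN of the fork protection complex (-0.15, adjusted p = 0.044), and 1 was higher with siOGT2, DSCC1 of an alternative clamp loader (0.21, adjusted p = 0.0403). Of 17 further polymerase and lagging-strand genes, 2 were lower and 1 higher with siOGT1, and 1 was lower and 3 higher with siOGT2. MAD2L2, a subunit of the translesion polymerase zeta, was low with siOGT1 alone, at 0.920 and 1.09 FPKM, against 1.91 and 1.97 with siOGT2 and 1.64 and 1.88 with siNC.

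Further genes of nucleotide supply moved both ways. SAMHD1, which degrades deoxynucleotides, had 26.8 and 23.5 FPKM with siOGT1, 18.3 and 16.9 with siOGT2, and 37.1 and 36.8 with siNC. It fell by 0.54 with siOGT1 (SE 0.0582, adjusted p = 0.000278) and by 1.03 with siOGT2 (SE 0.0582, adjusted p = 2.35e-06). SAMHD1 is also known as an interferon-induced gene. In contrast, 3 of the 24 tested genes of this list were higher with siOGT1 and 10 with siOGT2, and 2 were lower with each. Over all tested genes, 9.51% and 22.1% were higher with siOGT1 and siOGT2, and 8.1% and 13.4% lower. CAD, which starts pyrimidine synthesis, rose with both siRNAs (0.19, adjusted p = 0.00727, and 0.23, adjusted p = 0.00141), as did IMPDH1, of guanine nucleotide synthesis (0.21, adjusted p = 0.0331, and 0.39, adjusted p = 0.00102).

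Among 27 further G1/S regulators, 3 were lower and 2 higher with siOGT1, and 10 were lower and 4 higher with siOGT2. CCND1, the cyclin D1 gene, had 60.4 and 58.3 FPKM with siOGT1, 61.4 and 62.5 with siOGT2, and 79.0 and 76.1 with siNC, and MYC averaged 9.60, 8.62 and 12.1 FPKM. Both fell with both siRNAs, CCND1 by 0.38 and 0.32 and MYC by 0.30 and 0.44 on the log2 scale (adjusted p of at most 0.00096). CDK6, a kinase that cyclin D1 activates, rose with both (0.18, adjusted p = 0.00436, and 0.10, adjusted p = 0.0362). Of 14 chromatin assembly genes, 2 were lower with each siRNA. Of 26 further repair and checkpoint genes, 4 were lower with siOGT1, and 6 were lower and 1 higher with siOGT2. BRCA2, of homologous recombination, averaged 2.29, 2.20 and 3.16 FPKM with siOGT1, siOGT2 and siNC and fell with both (-0.34, adjusted p = 0.00368, and -0.38, adjusted p = 0.00123). Of 13 histone genes whose mRNA is made in S phase, 1 was higher with siOGT1, and 4 were lower and 1 higher with siOGT2. These counts are to be read against the 8.1% lower and 9.51% higher with siOGT1 and the 13.4% lower and 22.1% higher with siOGT2 over all tested genes. The chromatin assembly genes, with 14.3% lower with siOGT2, were near that share, the repair and checkpoint genes had 15.4% lower with siOGT1 and 23.1% with siOGT2, and the G1/S regulators had 11.1% and 37%.

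**Figure D5:**
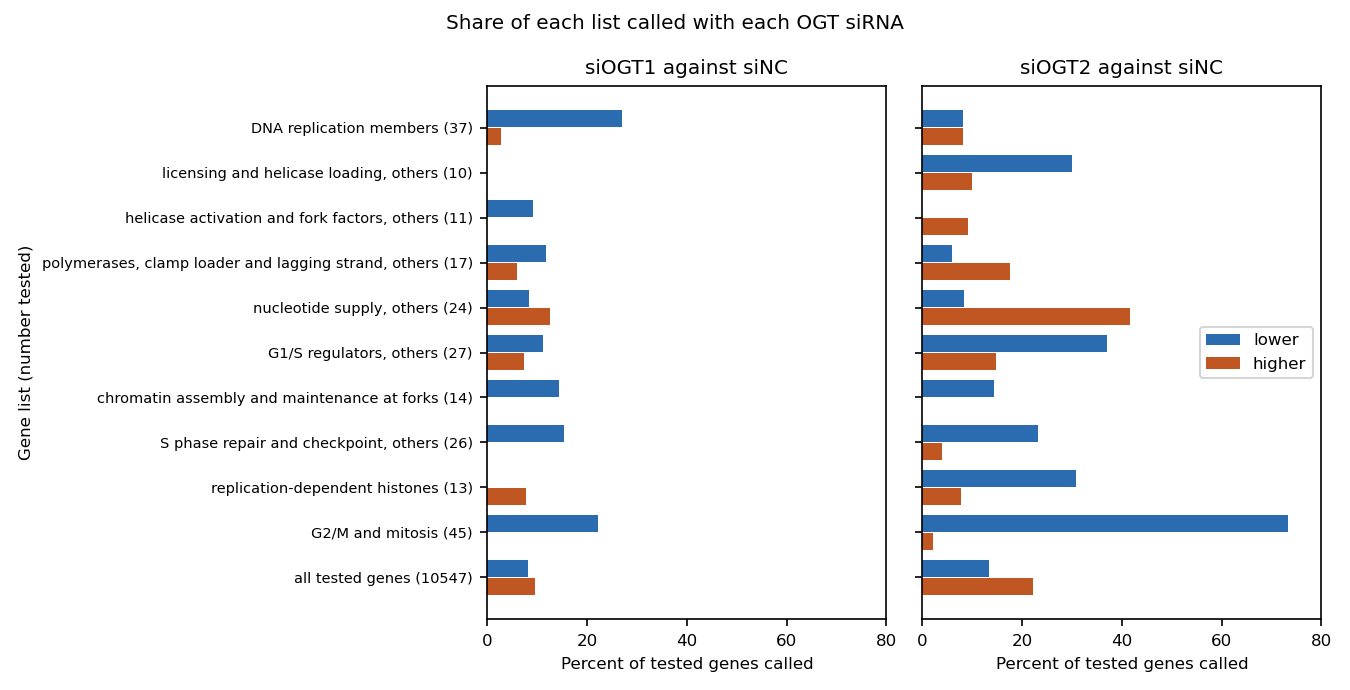
Percent of the tested genes of each list (vertical axis, number tested in brackets) that were lower or higher with siOGT1 (left panel) and with siOGT2 (right panel), each against siNC. The 37 replication genes have 27% lower with siOGT1 and 8.11% with siOGT2, whereas the G2/M and mitosis list has 22.2% and 73.3%. All tested genes have 8.1% and 13.4% lower.

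Genes of G2/M and mitosis are given beside the replication genes. With siOGT1, 10 of 45 were lower and 0 higher by limma, beside 8.1% and 9.51% of all tested genes. At an unadjusted p under 0.05 limma gave 16 and 0, beside 1272 and 2088 of all 10547. With siOGT2, 33 were lower and 1 higher, beside 13.4% and 22.1% of all. The median log2 fold changes of the 45 were -0.074 with siOGT1 and -0.231 with siOGT2. Compared directly, 5 of the 45 were lower and 14 higher with siOGT1 than with siOGT2, against 7 lower and 0 higher of the 37 replication genes. Over all tested genes, 8.24% were lower and 8.35% higher, so the 11.1% lower of the G2/M list was near that share. TOP2A, the topoisomerase that untangles sister chromatids, was lower with siOGT1 than with siOGT2, at 17 and 17.5 FPKM with siOGT1, 23.5 and 25.8 with siOGT2, and 28.4 and 29.3 with siNC. CCNB1, the cyclin B1 gene, was higher with siOGT1 than with siOGT2, at 35.7 and 39.7 FPKM with siOGT1, 31.2 and 33.0 with siOGT2, and 40.4 and 41.0 with siNC. The proliferation marker MKI67 averaged 8.69, 7.86 and 8.83 FPKM, lower with siOGT2 (-0.15, adjusted p = 0.0286) and at -0.02 with siOGT1 (adjusted p = 0.785). These lists differ in level and in genes, and the difference between the lists was not tested.

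Reads from mitochondrial genes made up 2.08% and 2.10% with siOGT1, 2.32% and 2.35% with siOGT2, and 2.02% and 2.0% with siNC. Of 13 mitochondrial transcripts, 1 was higher with siOGT1 and 11 with siOGT2, beside 9.51% and 22.1% of all tested genes. By limma 0 were lower with either, also at an unadjusted p under 0.05, beside 8.1% and 13.4% of all at the adjusted threshold. Their part in the results on replication genes was not tested.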

How the data were processed

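Per the labels' protocols, total RNA was taken with TRIzol and made into libraries with the NEBNext Ultra II RNA kit. Reads were trimmed with cutadapt 1.15 and aligned to GRCh38 with HISAT2, per the submitters' processing notes; no counting program, annotation or strand setting is stated, being not given in the sources used here, so reads of overlapping genes cannot be told apart. The authors deposited FPKM values for 20036 Ensembl gene identifiers in 6 libraries, and 20011 matched a gene name table. Gene coordinates are those of GENCODE 29 on GRCh38.

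Whole reads were recovered from the FPKM values (tolerance 0.01 reads) for 100.0% of the 17114 genes above 0, and gave depths of 16756649 to 21416489 reads. Genes averaging at least 1 FPKM were tested on log2(FPKM + 1) with limma 3.58.1 in R 4.3.3 (1 mean per group over all 6 libraries, eBayes with an intensity trend, 3 residual and 6.31 prior degrees of freedom, two-sided). P-values were adjusted by Benjamini-Hochberg over the 10547 tested genes, and called under 0.05. The model was also run on simulated data in which both OGT siRNAs had the same set changes. That run did not cover the contrast of siOGT1 with siOGT2, and its outcome is not given here. The 44 genes and the other lists were chosen with earlier results of these data known. Genes called in any comparison are named with all values, and up to 4 of each other list, those with the smallest p in the mean of both siRNAs, could be named, besides MKI67, TOP2A and CCNB1. Alternatives were other pseudocounts, filters, scalings and variance models, limma's voom on the recovered reads, the replicate number as a block, fits of only the groups compared and leaving out each library.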

Additional observations from a re-analysis of the deposited data

Results flagged for a closer look

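The effects of the 2 siRNAs on 7 replication genes differed, as tested by limma's direct contrast of siOGT1 with siOGT2 (adjusted p between 0.000485 and 0.0479 over all tested genes). The difference in log2(FPKM + 1), siOGT1 minus siOGT2, was -0.411 for MCM6, -0.366 for MCM4 and -0.24 for MCM3 in the helicase ring. It was -0.335 for RFC3 of the clamp loader, -0.349 for RRM2 and -0.212 for TK1 in nucleotide supply, and -0.321 for the transcription factor gene E2F1. The 7 genes were chosen by this contrast, so siOGT1 libraries below siOGT2 libraries follow from the choice and add no support. Over all tested genes, 8.24% were lower in that contrast. The differences of MCM3, MCM4 and MCM6 held in every other setting. Calls were lost for E2F1 in 11 of 16 settings, for TK1 in 6 of 16, for RFC3 in 3 of 17 and for RRM2 in 2 of 16.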

How the results depend on the processing

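Of the 33 calls of single genes, 10 held in every one of up to 17 other settings in which they were tested and 0 reversed. Those were MCM4 and FEN1 with siOGT1, MCM6, FEN1 and RPA1 with siOGT2, FEN1 and RPA1 in the mean of both siRNAs, and MCM3, MCM4 and MCM6 between the siRNAs. Counts below are of replication genes, beside 10 lower and 1 higher with siOGT1, 3 and 3 with siOGT2, 7 and 2 in the mean, 7 and 0 between the siRNAs, and 2 lower and 1 higher with both. Without the filter on low values, with more genes tested, 6 were lower and 0 higher with siOGT1, 3 lower and 1 higher in the mean, and 0 higher with both. CLSPN, below the filter in the fit reported, was among those 6 and among those 3. With a mean of at least 5 FPKM, with fewer members tested, 4 were lower with siOGT1, 1 with siOGT2, 2 lower and 1 higher in the mean, 3 lower between the siRNAs and 1 lower with both. With a trimmed mean of log ratios 0 were higher with siOGT1, 6 lower with siOGT2, 1 higher in the mean, and 4 lower and 0 higher with both. Quantile normalization gave 0 higher with siOGT1, 5 lower with siOGT2, 1 higher in the mean, and 4 lower and 0 higher with both. Equal FPKM sums gave 6 lower with siOGT2, 1 higher in the mean and 4 lower with both. Without the intensity trend 0 were higher with siOGT1, 1 was higher between the siRNAs and 0 were higher with both. With voom on the recovered reads 0 were higher with siOGT1, 5 lower and 5 higher with siOGT2, and 4 lower and 0 higher with both. For these, where no construction is named, the cause was not tested.

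Leaving out 1 library at a time, with a lone library assumed to vary like the others, gave 3 to 10 lower and 0 to 1 higher with siOGT1, 1 to 3 lower and 2 to 3 higher with siOGT2, 2 to 8 lower and 1 to 2 higher in the mean, 3 to 6 lower between the siRNAs, and 1 to 2 lower and 0 to 1 higher with both. The libraries share replicate numbers, and the labels do not say what these stand for. Differences between replicates 1 and 2 correlated at -0.0218 (siOGT1 with siNC), -0.0262 (siOGT2 with siNC) and 0.0494 (siOGT1 with siOGT2). The noise of single libraries enters each difference, so these values do not show whether libraries with the same number were paired. With the replicate block the counts were 10 and 1, 3 and 4, 6 and 2, and 8 and 0. Over all genes, counts that moved by over 1.5 times include 498 higher with siOGT1 without the filter and 1513 with voom, beside 1003, and 1333 higher in the mean without the filter, beside 2041. Between the siRNAs, 493 were lower and 524 higher without the filter, beside 869 and 881, and 384 were higher with both siRNAs without the filter or with the trimmed mean, beside 765. Leaving out a library took the counts over all genes down to 538 lower and 407 higher with siOGT1, 1241 higher with siOGT2, 752 lower and 890 higher in the mean, 399 lower and 417 higher between the siRNAs, and 316 lower and 338 higher with both. The least covered tested replication gene, E2F1, rested on 42 reads in 1 library, so its values carry more counting error than those of deeper genes.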
